A study of Mus musculus with 6 samples.

Results

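The nuclear genes of oxidative phosphorylation were followed in gastrocnemius muscle of mice that lacked or overexpressed the transcription factor IRF4 in muscle fibers. The members were all gene symbols of the count table that begin with Nduf, Sdha, Sdhb, Sdhc, Sdhd, Uqcr, Cox4, Cox5, Cox6, Cox7, Cox8 or Atp5 and that reached a sum of 60 counts over the 6 libraries. Of 24054 genes in the table, 94 matched by symbol and 91 reached the sum. The 3 others were Cox6b2, with 28 counts in all, and Cox7b2 and Cox8c, which had 0 counts in every library. A count of 3, taken as the floor of detection, equals 0.101 to 0.148 CPM (counts scaled to library size) in these libraries and covers counting error only. The members were 36 subunits of complex I, 4 of complex II, 8 of complex III, 15 of complex IV, 15 of complex V, 12 assembly or associated factors and Ndufa4l2, a paralogue of the complex IV subunit Ndufa4. All 91 members passed the filter on low counts.

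Both groups were male C57BL/6 mice that carried Myl1-cre, a Cre driver active in skeletal muscle fibers, and each had 3 libraries. MI4KO mice were homozygous for a floxed Irf4, so the gene was lost in fibers and kept in the other cells of the muscle. MI4OE mice carried Irf4 at Rosa26 behind a stop cassette that Cre removes. Diet is uncertain, because the labels name a high fat diet and the study speaks of chow, and the age of these mice was not given in the sources used here. No wild-type or Cre-only gastrocnemius was analysed here, so each difference below is between a knockout and an overexpressor. The sources do not tell how each library was drawn beyond a separate animal number, so p-values measure only the spread between these samples. Total expected counts ran from 18828605, in MI4OE replicate 1, to 29239585. Irf4 was at 0.246, 0 and 0.0672 CPM in the MI4KO libraries, against 141, 369 and 261 CPM in the MI4OE libraries. It was thus high only in the libraries labelled as overexpressors. The low values cannot tell a knockout from normal muscle, because the level of Irf4 in normal gastrocnemius was not measured here.

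Oxidative phosphorylation passes electrons from NADH through complex I, or from succinate through complex II, to ubiquinone, then through complex III and cytochrome c to complex IV, where oxygen is reduced. Complexes I, III and IV pump protons across the inner mitochondrial membrane, and complex V, the ATP synthase, uses the gradient to make ATP. Each complex except complex II also has subunits encoded by mitochondrial DNA, so the nuclear and mitochondrial genomes must supply parts in step. In muscle, fibers that contract slowly or resist fatigue hold more of these proteins than fast glycolytic fibers. Several complex IV subunits exist as a pair of genes, of which heart and skeletal muscle use mainly the isoform named Cox6a2, Cox7a1 or Cox8b. None of the 13 mitochondrially encoded subunits looked for was listed in the table, so only the nuclear side was measured.

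No member differed between the groups by edgeR's quasi-likelihood test at an adjusted p of 0.05, where 0.0237% of the 12660 genes tested were called. DESeq2, edgeR's exact test and limma on log2 TPM also called 0 members, and 1 member had an unadjusted p under 0.05 in each of these tests, against 7.58% of all genes tested by the quasi-likelihood test. At a fold change of 1.5 or more with an unadjusted p under 0.05, 1 of 91 members was called, and the share among all genes was 6.64%. That member was Ndufa4l2. In 0 members did the 3 MI4OE libraries all lie above the 3 MI4KO libraries (7.38% of all genes), and in 0 did they all lie below (5.48%). The fold and p criterion depended on the libraries used, since without MI4OE replicate 2 it was met by 13 members (14.3%) and by 10.2% of all genes.

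The fitted differences still leaned to the same side. The fitted log2 fold change of MI4OE against MI4KO was above 0 for 87 of 91 members. It was above 0 for 50% of all genes tested, and among abundant genes this share varied with transcript length, as given below. All 78 structural subunits of the 5 complexes were on that side, and the 4 members below 0 were the factors Atp5s, Ndufaf4, Ndufaf6 and Sdhaf1, of which Sdhaf1 was at 0.024 when libraries were scaled by total counts. The median log2 fold change was 0.37 over the members, where the median of all genes was 0.00. It was 0.35 for complex I, 0.26 for complex II, 0.38 for complex III, 0.51 for complex IV, 0.42 for complex V and 0.13 for the assembly or associated factors.

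This lean came with 1 library. MI4OE replicate 1 held the highest CPM of 86 of the 91 members, and MI4KO replicate 2 held the lowest CPM of 77. Without MI4OE replicate 1 the median over the members was -0.10, with 22 members above 0 and 69 below. The median was then -0.12 for complex I, 0.02 for complex II, -0.10 for complex III, -0.10 for complex IV and -0.05 for complex V. Without MI4KO replicate 2, 79 members stayed above 0, and the median was 0.19. Without MI4OE replicate 2, which was the lowest library of 9 members, the median was 0.61.

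**Figure D1:**
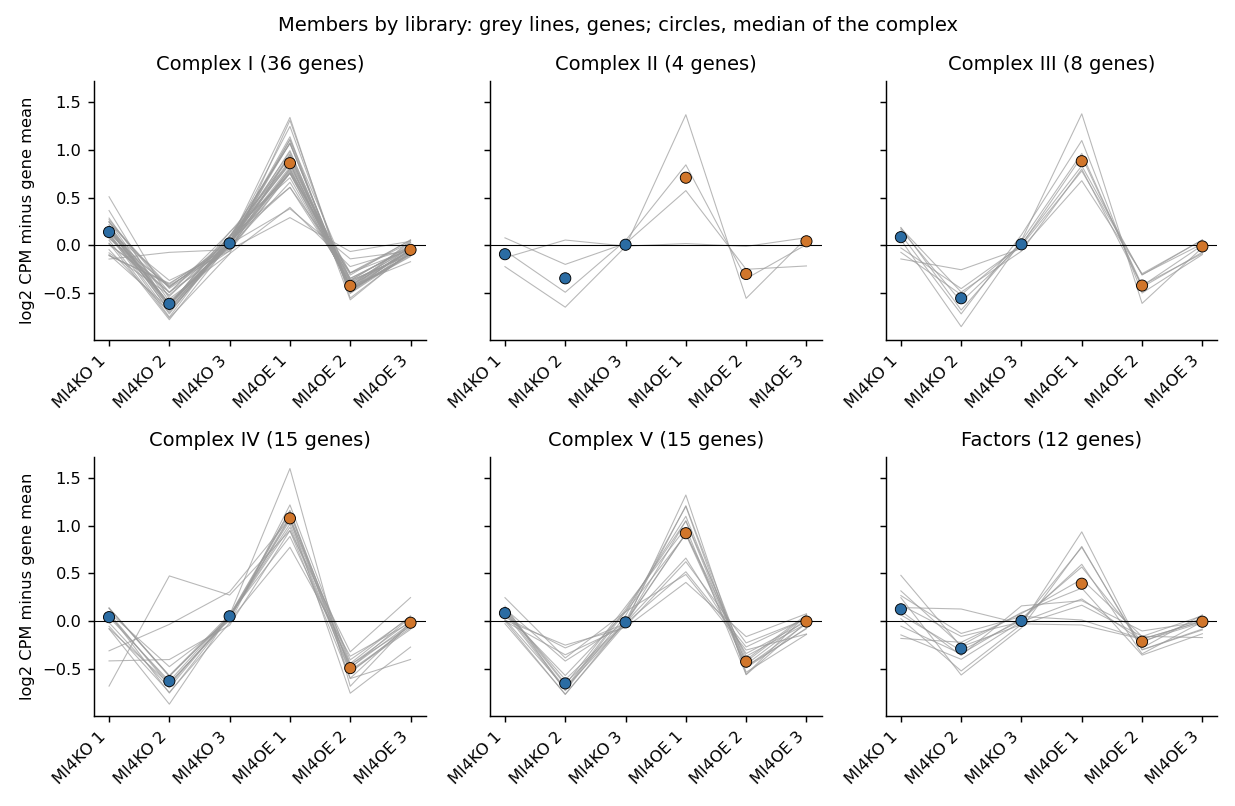
Each grey line is a member, drawn as its log2 CPM in the 6 libraries minus its own mean over them, with 1 panel for each complex and 1 for the factors (Ndufa4l2 is left out); circles are the median of the panel, blue for MI4KO and orange for MI4OE. The circles of complexes I, III, IV and V peak in MI4OE replicate 1, between 0.86 and 1.08, and are lowest in MI4KO replicate 2, between -0.66 and -0.56.

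Summed over the members, transcripts of this system took 5.82%, 5.01% and 6.70% of all TPM (a level that takes transcript length into account) in MI4KO replicates 1, 2 and 3. They took 12.1%, 5.34% and 6.85% in MI4OE replicates 1, 2 and 3. The 5 libraries other than MI4OE replicate 1 lay between 5.01% and 6.85% with both groups mixed, and MI4OE replicate 1 stood apart. The group means were 5.84% ± 0.84 (SD, n = 3) in MI4KO and 8.09% ± 3.53 (SD, n = 3) in MI4OE. The ratio of MI4OE replicate 1 to the mean of the other 5 libraries had a median of 2.11 over the structural subunits, while the other 5 differed among themselves by a median of 1.68 from highest to lowest. The 12 factors had a median ratio of 1.38 and a median spread of 1.39. Of these factors 9 were highest in MI4OE replicate 1, among them Ndufaf3 at a ratio of 2.21 with a spread of 1.49 and Atp5sl at 1.90 with a spread of 1.39.

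**Figure D2:**
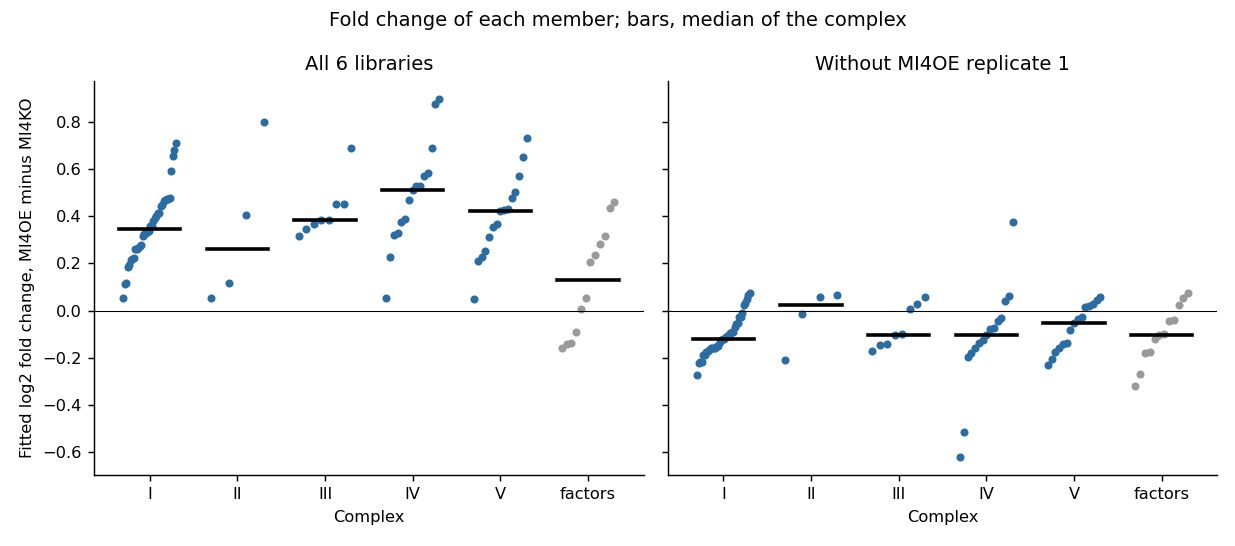
Points are the fitted log2 fold changes of single members, MI4OE minus MI4KO, grouped by complex on the x axis, with all 6 libraries on the left and without MI4OE replicate 1 on the right; bars are medians. All structural subunits lie above 0 on the left, whereas 18 of the 78 do on the right.

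Markers of fiber and cell types also moved between libraries. The 11 slow-fiber genes, a list that also holds Myh2 of fast oxidative fibers, summed to 44.9, 234 and 1142 CPM in MI4KO replicates 1, 2 and 3 and to 14810, 68.5 and 2520 CPM in MI4OE replicates 1, 2 and 3. They were highest in MI4OE replicate 1, with Tnni1, the slow troponin I, at 364 CPM there, at 28.9 CPM in MI4OE replicate 3 and at no more than 2.73 CPM elsewhere, including 0 in MI4OE replicate 2. Tpm3, a tropomyosin of slow fibers, was at 14.0, 21.6 and 19.95 CPM in MI4KO against 643, 13.9 and 71.2 CPM in MI4OE. All 11 slow-fiber genes had a fitted log2 fold change above 0, 8 with an unadjusted p under 0.05 and 0 with an adjusted p under 0.05 by edgeR, and their median was 5.14. Without MI4OE replicate 1 their median was 1.83. The 3 highest libraries were the same and in the same order for the slow-fiber sum and for the share of TPM held by the members, namely MI4OE replicate 1, MI4OE replicate 3 and MI4KO replicate 3. The other 3 stood in the opposite order, with MI4KO replicate 2 above MI4OE replicate 2 and MI4KO replicate 1 in the slow-fiber sum and below both in the share of the members. The part of fiber composition in the members' values was not tested. In bulk tissue, more fibers of a type and more RNA per fiber cannot be told apart.

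Among the other marker lists, the 6 white adipocyte genes summed to 56.2, 134 and 568 CPM in MI4KO and to 6.25, 34.8 and 9.76 CPM in MI4OE, and their median log2 fold change was -3.65, or -3.28 without MI4OE replicate 1. The sums of the groups did not overlap, and all 6 genes had an unadjusted p under 0.05 and 0 an adjusted p under 0.05 by edgeR. Ucp1, the uncoupling protein of brown fat, was at 71.0 CPM in MI4KO replicate 2 and at no more than 0.148 CPM in the other libraries. The 4 brown adipocyte genes summed to 18.0 to 116 CPM. Ppargc1a, which is also on the list of regulators below, was at 17.5 to 27.5 CPM in all libraries. It made up most of this sum outside MI4KO replicate 2. The 4 endothelial genes summed to 65.6, 109 and 109 CPM in MI4KO and to 249, 127 and 152 CPM in MI4OE. They too were highest in MI4OE replicate 1, but here the sums of the groups did not overlap. Cdh5, Kdr and Tek were each higher in all MI4OE libraries than in all MI4KO libraries, as were 7.38% of all genes. Their median log2 fold change was 0.91, or 0.68 without that library, and 3 of the 4 had an unadjusted p under 0.05 and 0 an adjusted p under 0.05 by edgeR. The 5 general muscle fiber genes summed to 84110 CPM in MI4OE replicate 1 and to 86240 to 114700 CPM elsewhere, mostly from Acta1 and Ckm. Of these genes Mb, the oxygen store myoglobin, was at 730, 305 and 1917 CPM in MI4KO against 9763, 487 and 2356 CPM in MI4OE, with a log2 fold change of 2.09, or 0.53 without MI4OE replicate 1. The 6 fast-fiber genes summed to 105700 CPM in MI4OE replicate 1 and to 155000 to 209900 CPM elsewhere, mostly from Myh4 and Tnnt3, whereas Myh1, another fast myosin, was at 566, 810 and 3206 CPM in MI4KO and was highest in MI4OE replicate 1, at 10170, 1305 and 5964 CPM in MI4OE, with a log2 fold change of 1.93, or 1.25 without that library. The 5 cardiomyocyte genes summed to 15.2 CPM in MI4OE replicate 1 and to no more than 7.41 CPM elsewhere, with Nppa at no more than 0.221 CPM. The part of these cells in the members' values was not tested.

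**Figure D3:**
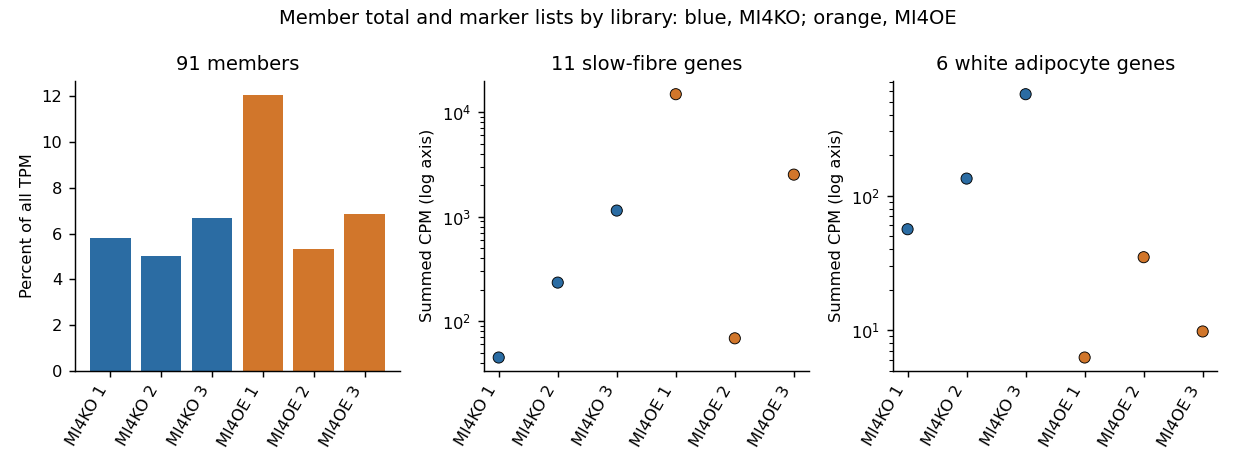
Bars show the share of all TPM taken by the 91 members in each library, and points show the summed CPM of 11 slow-fiber and 6 white adipocyte genes on log axes, blue for MI4KO and orange for MI4OE. MI4OE replicate 1 is highest for the members (12.1%) and the slow-fiber genes (14810 CPM) and lowest for the adipocyte genes (6.25 CPM).

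Transcript length varied with the size of the deviation. Of the 76 members at a mean of 50 CPM or more, 28 had an effective length, the length over which a read can start, of up to 500 bases. In MI4OE replicate 1 the median deviation of log2 CPM from the mean of the 6 libraries was 1.03 for these members and 0.59 for other genes of that length and level. It was 0.92 and 0.40 between 500 and 1000 bases, 0.76 and 0.04 between 1000 and 2000 bases, and 0.35 and -0.30 over 2000 bases. In this library the members exceeded the other genes in each length class, and both sets declined with length. The class over 2000 bases held only 4 members. In MI4KO replicate 2 both sets rose from the shortest to the longest class, members from -0.67 to -0.16 and other genes from -0.51 to 0.13. They also rose in MI4OE replicate 2, members from -0.48 to -0.11 and other genes from -0.37 to 0.10. Across the 91 members, the deviation in MI4OE replicate 1 had a Spearman correlation of -0.57 with effective length, as a description over genes that share the same libraries. At this level the fitted log2 fold change was above 0 for 100% of the members in each length class. It was above 0 for 72.7% of other genes up to 500 bases and for 56.2% between 500 and 1000 bases. The share was 39.4% between 1000 and 2000 bases and 26.5% over 2000 bases. The part of length in the members' values was not tested.

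Complex I oxidizes NADH, and 7 of its 36 members are core subunits that carry the flavin and iron-sulfur clusters of its peripheral arm. The medians of core and accessory subunits were 0.33 and 0.36 on the log2 scale, and -0.058 and -0.15 without MI4OE replicate 1. By TPM its most abundant members were Ndufb9, Ndufb8 and Ndufa3, accessory subunits of the membrane arm, with means over the 6 libraries of 1380, 1332 and 1041 TPM. Ndufb9 was at 496, 289 and 474 CPM in MI4KO against 844, 324 and 415 CPM in MI4OE. Ndufb8 was at 449, 300 and 465 CPM in MI4KO against 773, 306 and 390 CPM in MI4OE. For both genes the groups overlapped, and MI4OE replicates 2 and 3 lay within the range of the knockouts. Ndufa3 was at 154, 85.3 and 150 CPM against 296, 101 and 132 CPM.

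The smallest unadjusted p-values in complex I belonged to Ndufa11, Ndufs8 and Ndufa9. Ndufa11, an accessory subunit of the membrane arm, was at 133, 75.5 and 121 CPM in MI4KO against 320, 90.9 and 128 CPM in MI4OE. Its log2 fold change was 0.71 ± 0.47 (SE, standard error), with an adjusted p of 0.80 by edgeR. It was -0.01 without MI4OE replicate 1, so the difference lay in that library. Ndufs8, a core subunit that holds iron-sulfur clusters, was at 134, 90.5 and 147 CPM against 342, 103 and 140 CPM, with a log2 fold change of 0.66 ± 0.44 (SE) and an adjusted p of 0.80 by edgeR. Ndufa9, which sits near the site where ubiquinone binds, was at 206, 151 and 220 CPM against 384, 178 and 225 CPM, with a log2 fold change of 0.45 ± 0.31 (SE) and an adjusted p of 0.81 by edgeR. For Ndufs8 and Ndufa9 leaving out MI4OE replicate 1 gave -0.029 and 0.065. Ndufs1, the largest core subunit, varied little, at 218, 229 and 233 CPM in MI4KO and 294, 230 and 248 CPM in MI4OE. The TPM ratio of Ndufs8 to Ndufs1 was 2.33, 1.51 and 2.39 in MI4KO and 4.36, 1.70 and 2.15 in MI4OE. Even within the core of complex I the genes thus did not keep a fixed proportion. The effective lengths were 745.2 bases for Ndufs8 and 2648.1 bases for Ndufs1, and the part of length in this ratio was not tested.

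Complex II, succinate dehydrogenase, is also an enzyme of the citric acid cycle, and its 4 subunits are all nuclear. Sdha, the flavoprotein that binds succinate, was at 462, 525 and 503 CPM in MI4KO against 512, 502 and 534 CPM in MI4OE. Among the structural subunits it stood out least in MI4OE replicate 1, at 1.01 times the mean of the other 5 libraries, and its log2 fold change was 0.06 ± 0.17 (SE) with an adjusted p of 0.96 by edgeR. Sdhb, the iron-sulfur subunit that takes electrons from Sdha, was at 356, 265 and 412 CPM in MI4KO against 1075, 282 and 438 CPM in MI4OE. MI4OE replicate 1 was 3.07 times the mean of the others for Sdhb, the second-highest such ratio among the structural subunits. The log2 fold change of Sdhb was 0.80 ± 0.47 (SE) with an adjusted p of 0.76 by edgeR, and 0.06 without that library.

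The membrane anchors Sdhc and Sdhd lay between these partners. Sdhc was at 263, 194 and 283 CPM against 491, 214 and 275 CPM, with a log2 fold change of 0.41, or -0.014 without MI4OE replicate 1. Sdhd was at 171, 141 and 164 CPM against 241, 136 and 139 CPM, with a log2 fold change of 0.12, or -0.21 without that library. The proteins of this complex assemble in equal numbers, whereas the TPM ratio of Sdhb to Sdha was 2.22, 1.45 and 2.36 in MI4KO and 6.04, 1.62 and 2.36 in MI4OE. Apart from MI4OE replicate 1 the ratios of the groups overlapped, and the lowest ratio was that of MI4KO replicate 2. Sdha was also the member least like the others, with a correlation of -0.29 with the mean deviation of all members over the 6 libraries. Sdha and Sdhb had effective lengths of 2801.5 and 1015.5 bases, and median deviations in MI4OE replicate 1 declined with length, as given above. The part of length in the ratio of Sdhb to Sdha and in the correlation of Sdha was not tested.

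**Figure D4:**
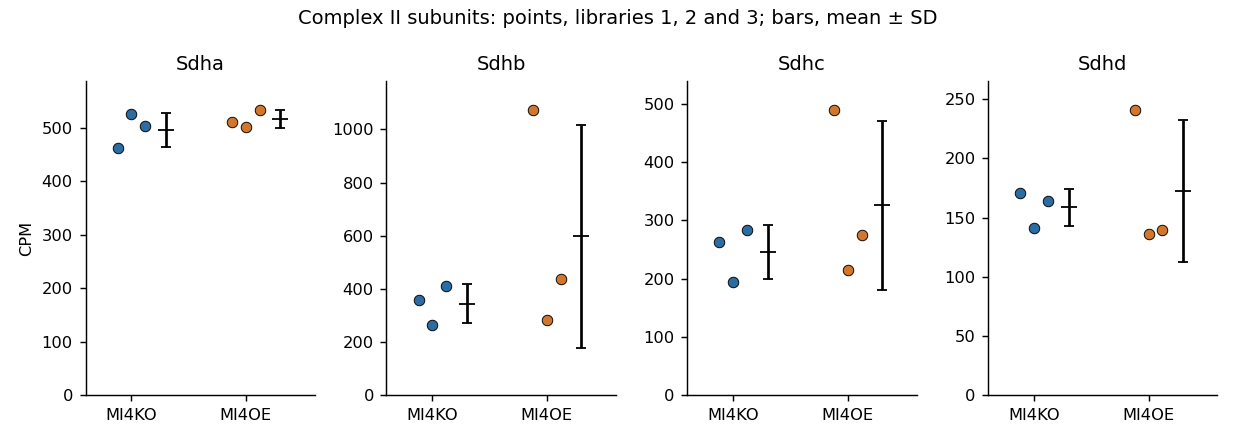
Points are the CPM of the 3 libraries of each group, replicates 1, 2 and 3 from left to right, for the 4 subunits of complex II, and bars are the mean ± SD. Sdha lies between 462 and 534 CPM in all libraries, whereas Sdhb reaches 1075 CPM in MI4OE replicate 1 and stays at or below 438 CPM in the others.

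The sequences upstream of both genes are shown because Sdhb and Sdha were far apart in MI4OE replicate 1, at 3.07 and 1.01 times the mean of the other libraries. Their transcripts also differ in effective length, and the part of length in this contrast was not tested. The sequences are the 250 bases before the start of transcription, from RefSeq on GRCm38.p6, written 5′ to 3′ on the strand of the gene. Sdhb lies on the plus strand at chr4:140961021-140961270, and Sdha on the minus strand at chr13:74350241-74350490. Capitals mark matches to motifs searched on both strands.
Sdhb: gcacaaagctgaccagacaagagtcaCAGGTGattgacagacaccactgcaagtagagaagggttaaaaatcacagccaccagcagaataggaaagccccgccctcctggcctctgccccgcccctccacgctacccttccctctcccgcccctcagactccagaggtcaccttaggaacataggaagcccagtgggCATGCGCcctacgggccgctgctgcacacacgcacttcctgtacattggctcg
Sdha: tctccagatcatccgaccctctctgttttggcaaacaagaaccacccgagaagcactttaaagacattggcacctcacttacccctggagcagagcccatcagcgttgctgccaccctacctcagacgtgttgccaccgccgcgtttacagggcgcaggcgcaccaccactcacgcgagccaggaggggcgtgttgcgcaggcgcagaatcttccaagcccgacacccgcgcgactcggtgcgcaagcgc
In Sdhb the capitals are an E-box (CANNTG) and, 53 to 47 bases before the start, the core of the NRF1 motif (GCGCATG) on the opposite strand, and Sdha had no match.

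Of the 91 members, 76 had an entry in this promoter table, 3 of them under a newer symbol. The NRF1 core was in 11 of the 76 upstream stretches (14.5%) and in 3.3% of 27025 stretches of the same length over all genes. The ETS core CCGGAAG, read by factors such as GABP, was in 13 (17.1%) against 7.1%. The motif AAGGTCA of the estrogen-related receptors was in 5 (6.6%) against 4.1%, and the interferon-regulatory core GAAANNGAA, the kind of sequence that IRF proteins read, was in 6 (7.9%) against 7.2%. The E-box was in 65.8% against 66.0%, the YY1 core AAGATGG in 0 members against 4.5%, and the MEF2 site in 0 against 0.5%. Median GC content was 57.4% for the members and 52.0% for all stretches, and a match is a string of letters rather than a binding site.

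Complex III carries electrons from ubiquinol to cytochrome c. All 8 members had a fitted log2 fold change above 0, from 0.32 to 0.69, and all were highest in MI4OE replicate 1. Uqcrq, a small subunit that contacts cytochrome b, was at 357, 190 and 355 CPM in MI4KO against 893, 225 and 337 CPM in MI4OE. Its log2 fold change was 0.69 ± 0.51 (SE), with an adjusted p of 0.83 by edgeR, and -0.10 without MI4OE replicate 1. Uqcrc1 and Uqcrc2, the large core proteins on the matrix side, varied less. Uqcrc1 was at 727, 534 and 773 CPM against 1365, 617 and 797 CPM, and Uqcrc2 was at 278, 257 and 300 CPM against 491, 250 and 319 CPM. Their log2 fold changes were 0.45 and 0.34, and 0.057 and 0.029 without MI4OE replicate 1. Uqcr10 and Uqcr11, small subunits that were among the 3 most abundant by TPM with Uqcrq, had log2 fold changes of 0.38 and 0.45, and -0.14 and -0.17 without MI4OE replicate 1.

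Complex IV, cytochrome c oxidase, had the highest median fold change, and its 15 members were all highest in MI4OE replicate 1. Its share of the TPM of all structural subunits was 26.6%, 26.8% and 27.8% in MI4KO and 30.1%, 26.6% and 28.0% in MI4OE, so the groups overlapped. Complex V held 27.4%, 28.0% and 27.5% against 26.9%, 28.2% and 27.9%, and complex I held 32.2%, 31.1% and 30.7% against 28.7%, 31.2% and 30.0%. The proportions of the complexes thus moved by a few percentage points, while their total in MI4OE replicate 1 lay far above the 4.97% to 6.80% of all TPM in the other libraries. Whether complexes differed from each other was not tested.

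Of Cox5a, Cox5b, Cox6b1, Cox6c, Cox7b and Cox7c, which have no muscle isoform among the members, Cox5b, a zinc-binding subunit on the matrix side, had the largest fold change. It was at 458, 283 and 469 CPM in MI4KO against 1107, 349 and 494 CPM in MI4OE, with a log2 fold change of 0.69 ± 0.43 (SE) and an adjusted p of 0.79 by edgeR. Leaving out MI4OE replicate 1 gave 0.06. Cox5a, another small subunit on the matrix side, was at 460, 310 and 433 CPM against 739, 334 and 427 CPM, with a log2 fold change of 0.32, or -0.078 without MI4OE replicate 1. Cox6b1, Cox6c, Cox7b and Cox7c, small subunits around the catalytic core, had log2 fold changes between 0.51 and 0.57, and between -0.14 and -0.03 without MI4OE replicate 1. For each of these genes the knockout and overexpressor libraries overlapped.

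The paired isoforms were compared as shares of TPM. Cox6a2, the muscle isoform and the most abundant member, was at 2328, 2158 and 3002 TPM in MI4KO against 5829, 2444 and 3236 TPM in MI4OE. Its partner Cox6a1 was at 40.0, 126 and 94.6 TPM against 143, 55.9 and 62.5 TPM. Cox6a2 made up 98.3%, 94.5% and 96.9% of the pair in MI4KO and 97.6%, 97.8% and 98.1% in MI4OE, so the muscle form prevailed everywhere and the groups overlapped. The log2 fold change was 0.58 for Cox6a2 and 0.05 for Cox6a1, and 0.04 and -0.62 without MI4OE replicate 1. In CPM, Cox6a1 was at 12.6, 28.8 and 25.0 in MI4KO against 40.2, 13.4 and 15.5 in MI4OE, so that MI4OE replicates 2 and 3 lay between the knockouts.

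Cox8b followed the same pattern. It was at 2141, 1805 and 2414 TPM in MI4KO against 4436, 1782 and 2346 TPM in MI4OE, and Cox8a, the form of most other tissues, was at 80.5, 136 and 149 TPM against 239, 77.4 and 106 TPM. Cox8b made up 96.4%, 93.0% and 94.2% of the pair in MI4KO and 94.9%, 95.8% and 95.7% in MI4OE. Cox8a had a log2 fold change of 0.23, and -0.52 without MI4OE replicate 1, while Cox8b had 0.39 and -0.20. In MI4KO replicates 1, 2 and 3 the summed white adipocyte genes were at 56.2, 134 and 568 CPM and the brown adipocyte genes at 25.7, 116 and 18.1 CPM. Of these brown sums, 24.9, 19.0 and 17.6 CPM came from Ppargc1a, which is not particular to brown fat in these libraries. Cox6a1 and Cox8a were both lowest in MI4KO replicate 1 among the knockouts, but Cox6a1 was highest of these in MI4KO replicate 2 and Cox8a in MI4KO replicate 3. In MI4OE replicate 1, where both were highest, the white adipocyte genes were at 6.25 CPM and the brown at 35.7 CPM. Of the latter, 27.5 CPM came from Ppargc1a and 0.148 CPM from Ucp1. The part of fat cells in these values was not tested.

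Cox7a1 was less dominant over Cox7a2, the isoform of liver and other tissues. Cox7a1 was at 905, 724 and 1197 TPM in MI4KO against 3268, 785 and 1210 TPM in MI4OE, and Cox7a2 was at 345, 291 and 388 TPM against 698, 283 and 389 TPM. The share of Cox7a1 was 72.4%, 71.3% and 75.5% in MI4KO and 82.4%, 73.5% and 75.7% in MI4OE. MI4OE replicate 1 was above all other libraries, but MI4OE replicate 2 lay within the knockouts, and the means were 73.1% ± 2.19 (SD, n = 3) and 77.2% ± 4.66 (SD, n = 3). In CPM, MI4OE replicate 1 was 3.67 times the mean of the others for Cox7a1, the largest such ratio of any member, and 2.22 times for Cox7a2. The log2 fold change of Cox7a1 was 0.87 ± 0.57 (SE) with an adjusted p of 0.79 by edgeR, and -0.07 without MI4OE replicate 1, and that of Cox7a2 was 0.38 and -0.18.

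**Figure D5:**
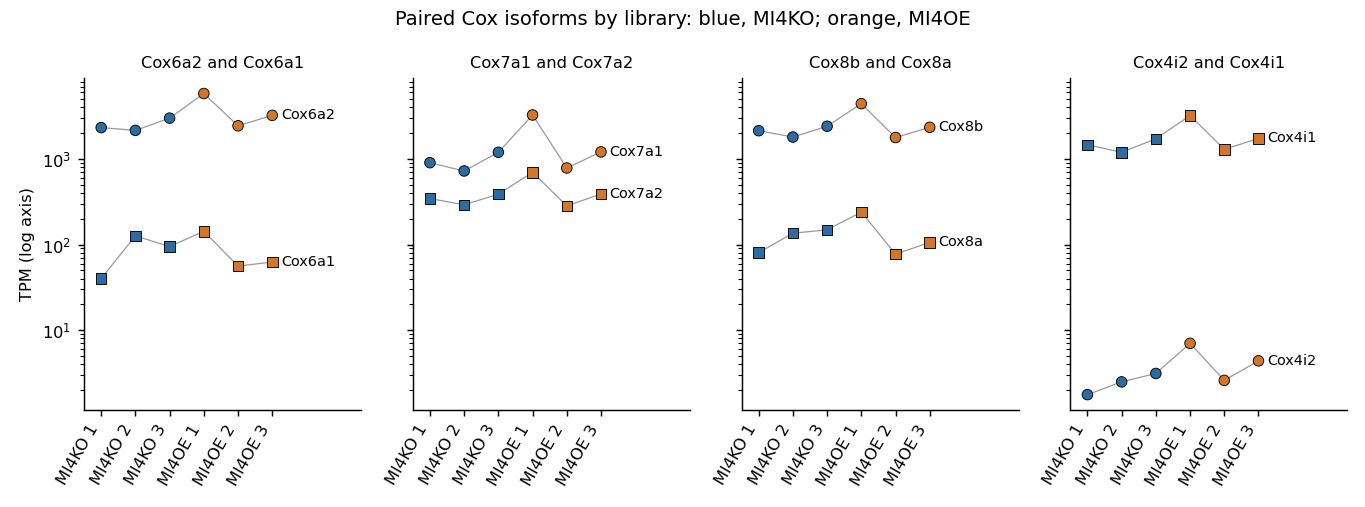
Each panel shows the TPM, on a log axis, of both genes of an isoform pair in the 6 libraries, blue for MI4KO and orange for MI4OE; circles are Cox6a2, Cox7a1, Cox8b and Cox4i2, squares are their partners, and grey lines join the points of a gene. The muscle isoforms Cox6a2 and Cox8b lie more than 10 times above their partners in every library, and Cox7a1 lies 2.49 to 4.68 times above Cox7a2.

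The upstream sequences of this pair are shown because Cox7a1 was the member furthest above the other libraries in MI4OE replicate 1. They are again the 250 bases before the start, from RefSeq on GRCm38.p6. Cox7a1 lies on the plus strand at chr7:30183921-30184170 and Cox7a2 on the minus strand at chr9:79759854-79760103. Capitals mark motif matches.
Cox7a1: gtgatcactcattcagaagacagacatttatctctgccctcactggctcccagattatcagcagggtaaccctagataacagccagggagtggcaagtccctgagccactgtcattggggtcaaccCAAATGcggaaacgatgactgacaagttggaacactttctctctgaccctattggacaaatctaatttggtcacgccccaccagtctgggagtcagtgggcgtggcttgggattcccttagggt
Cox7a2: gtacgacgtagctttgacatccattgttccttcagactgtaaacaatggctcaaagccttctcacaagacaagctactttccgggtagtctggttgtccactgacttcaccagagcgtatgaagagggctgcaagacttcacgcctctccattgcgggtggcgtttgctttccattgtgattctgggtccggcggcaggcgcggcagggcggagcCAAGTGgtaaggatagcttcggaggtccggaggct
Each had 1 E-box and no match to the other motifs searched. The E-box lies 124 to 119 bases before the start of Cox7a1 and 35 to 30 bases before that of Cox7a2.

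The remaining isoforms were rare in this tissue. Cox4i2, the form of lung and of low oxygen, was at 0.819, 0.832 and 1.21 CPM in MI4KO against 2.90, 0.909 and 1.59 CPM in MI4OE, or 0.120% to 0.251% of the Cox4 pair by TPM. Its log2 fold change was 0.90 ± 0.47 (SE) with an adjusted p of 0.73 by edgeR, the largest among the structural subunits, and 0.37 without MI4OE replicate 1. Its partner Cox4i1 was at 628, 370 and 617 CPM against 1231, 421 and 582 CPM. Cox6b2, the isoform of testis, was at 0 to 0.315 CPM, close to the floor.

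Ndufa4l2, a paralogue of Ndufa4 that is induced in low oxygen, was the only member to meet the fold and unadjusted p criterion. It was at 1.97, 2.22 and 4.43 CPM in MI4KO against 9.54, 4.30 and 5.74 CPM in MI4OE. The groups overlapped only by MI4OE replicate 2, which lay just below MI4KO replicate 3. The log2 fold change was 1.17 ± 0.41 (SE), with an adjusted p of 0.57 by edgeR, and the adjusted p ran from 0.24 to 0.96 over 16 alternatives. The unadjusted p of 0.023 missed 0.05 in 3 of the 6 fits that left out a library, at 0.078 without MI4KO replicate 1, 0.072 without MI4KO replicate 2 and 0.076 without MI4OE replicate 1, all by edgeR. The log2 fold change was then 0.96, 1.005 and 0.80. As a share of both genes by TPM, Ndufa4l2 held 0.204%, 0.377% and 0.482% in MI4KO and 0.587%, 0.674% and 0.680% in MI4OE, so on this scale the groups did not overlap. Ndufa4 itself was at 422, 258 and 402 CPM against 710, 279 and 369 CPM. Because this share was singled out for its pattern, it is given without a test.

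Complex V makes ATP. Atp5b, the catalytic beta subunit, was its most abundant member by TPM and was at 2400, 1880 and 2313 CPM in MI4KO against 3700, 2050 and 2441 CPM in MI4OE, with a log2 fold change of 0.31, or 0.028 without MI4OE replicate 1. Atp5k and Atp5e, small subunits of the membrane part and of the central stalk, followed in TPM, with log2 fold changes of 0.50 and 0.43, and -0.21 and -0.16 without MI4OE replicate 1. The smallest unadjusted p belonged to Atp5h, the d subunit of the peripheral stalk. It was at 279, 167 and 279 CPM in MI4KO against 713, 193 and 298 CPM in MI4OE, with a log2 fold change of 0.73 ± 0.47 (SE) and an adjusted p of 0.79 by edgeR. Leaving out MI4OE replicate 1 gave 0.02.

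The c ring that turns in the membrane is encoded by a set of 3 genes, Atp5g1, Atp5g2 and Atp5g3, which give the same mature protein. Atp5g1 was at 470, 275 and 469 CPM in MI4KO against 1086, 342 and 476 CPM in MI4OE, and Atp5g3 was at 373, 226 and 364 CPM against 765, 278 and 386 CPM. Their log2 fold changes were 0.65 ± 0.44 (SE) and 0.57 ± 0.39 (SE), with an adjusted p of 0.81 by edgeR for each, and 0.013 and 0.046 without MI4OE replicate 1. Atp5g2 was at 258, 167 and 234 CPM against 306, 176 and 198 CPM, with a log2 fold change of 0.05, which was -0.23 without MI4OE replicate 1 and -0.13 without MI4KO replicate 2. Its share of the TPM of the set was 26.6%, 28.2% and 24.9% in MI4KO and 16.4%, 25.1% and 21.3% in MI4OE. MI4OE replicate 1 had the lowest share, and MI4OE replicate 2 lay within the knockouts.

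The 12 factors that help to build or join the complexes had log2 fold changes between -0.16 and 0.46. They were Atp5s, Atp5sl, Cox7a2l, 7 Ndufaf genes and 2 Sdhaf genes. Atp5sl had the smallest unadjusted p, at 28.3, 23.6 and 31.2 CPM in MI4KO and 53.9, 25.7 and 32.8 CPM in MI4OE, with a log2 fold change of 0.43 ± 0.28 (SE) and an adjusted p of 0.79 by edgeR, and 0.075 without MI4OE replicate 1. The largest log2 fold change of the 12 was that of Ndufaf3, a complex I assembly factor, at 0.46 ± 0.35 (SE) with an adjusted p of 0.84 by edgeR, and -0.041 without MI4OE replicate 1. Ndufaf3 was at 13.0, 8.72 and 12.4 CPM against 24.8, 10.2 and 11.9 CPM. Cox7a2l, a factor for supercomplexes of complexes III and IV, was at 132, 102 and 127 CPM against 191, 99.3 and 126 CPM. Ndufaf4, another complex I assembly factor, was at 23.7, 23.5 and 21.0 CPM against 20.9, 18.8 and 21.5 CPM, and was not high in MI4OE replicate 1.

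The members moved together from library to library. With the group means removed, 79 of the 91 members (86.8%) had a Pearson correlation over 0.9 with the mean deviation of all members across the 6 libraries, compared with 11.7% of 11206 other genes with a mean of at least 1 CPM. They are a description over 6 libraries, of which MI4OE replicate 1 deviated most. Beside Sdha, the least alike were Ndufaf4 (0.25), Cox6a1 (0.53), Atp5s (0.67) and Ndufaf6 (0.69). The 5 genes outside the members with the closest pattern were Ctla2a, Prdx5, Dhrs11, Ccdc28b and Ggct, all with correlations above 0.99. Prdx5, a peroxiredoxin found in mitochondria, was at 133, 84.5 and 132 CPM in MI4KO against 275, 97.5 and 132 CPM in MI4OE.

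Other genes of the pathway were taken from lists. All 10 of the 15 further subunits and electron carriers that were in the table had fitted log2 fold changes above 0, with a median of 0.39, and of -0.06 without MI4OE replicate 1. Etfdh, which passes electrons from fatty acid oxidation to ubiquinone, was at 76.3, 94.9 and 96.3 CPM in MI4KO against 173, 84.7 and 115 CPM in MI4OE, with a log2 fold change of 0.48, or 0.16 without that library. Of 14 citric acid cycle genes, 11 were above 0 and 3 below, with a median of 0.19, or 0.0089 without MI4OE replicate 1. Idh2, the NADP-linked isocitrate dehydrogenase of mitochondria, was at 38.3, 61.6 and 144 CPM against 777, 67.7 and 191 CPM, with a log2 fold change of 2.09 ± 0.87 (SE) and an adjusted p of 0.65 by edgeR, and 0.67 without MI4OE replicate 1.

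Assembly factors outside the symbols of the rule (36 genes) had a median of 0.07, genes of coenzyme Q synthesis (12) 0.20, and genes of mitochondrial import and the outer membrane (15) 0.03. Their medians without MI4OE replicate 1 were -0.09, -0.05 and -0.13. In none of these lists did a gene reach an adjusted p of 0.05 by edgeR, and the single gene with an unadjusted p under 0.05 among them and the citric acid cycle was Idh2. In coenzyme Q synthesis the smallest unadjusted p belonged to Coq10b, a coenzyme Q-binding protein, at 9.25, 10.4 and 7.79 CPM in MI4KO against 7.82, 6.12 and 6.67 CPM in MI4OE. Its log2 fold change was -0.41 ± 0.19 (SE), with an adjusted p of 0.68 by edgeR, and -0.52 without MI4OE replicate 1. Adck3, a kinase-like protein of the same list, was at 286, 311 and 510 CPM against 1214, 332 and 581 CPM, with a log2 fold change of 0.94, or 0.31 without that library. Among the import genes, Tomm70a, a receptor of the outer membrane, was at 41.4, 47.9 and 34.5 CPM against 26.6, 36.1 and 36.8 CPM, and Timm23, a channel of the inner membrane, was at 373, 250 and 269 CPM against 255, 250 and 254 CPM. Their log2 fold changes were -0.31 and -0.23, and -0.18 and -0.24 without MI4OE replicate 1. For each of these 4 genes the groups overlapped.

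The 17 regulators of mitochondrial genes had a median of 0.12, or 0.057 without MI4OE replicate 1, and 0 of them had an unadjusted p under 0.05 by edgeR. Ppargc1a, the coactivator that drives mitochondrial biogenesis, was at 24.9, 19.0 and 17.6 CPM in MI4KO against 27.5, 17.6 and 17.5 CPM in MI4OE. Its close relative Ppargc1b was at 6.06, 6.85 and 7.86 CPM against 14.2, 7.31 and 7.95 CPM, with a log2 fold change of 0.50 ± 0.28 (SE) and an adjusted p of 0.75 by edgeR. Esrrb, an estrogen-related receptor, was at 0.655, 0.951 and 1.88 CPM against 12.3, 0.385 and 3.67 CPM, with a log2 fold change of 2.20 ± 1.01 (SE) and an adjusted p of 0.68 by edgeR. Leaving out MI4OE replicate 1 gave 0.14 for Ppargc1b and 0.77 for Esrrb.

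Few members had more than 1 transcript to choose from. Of 10 such members, Atp5g1, Atp5sl, Ndufs1, Ndufs6 and Ndufs8 had at least 2 transcripts that each held between 5% and 95% of the TPM in every library. Atp5g1 used NM_001161419 for 78.9%, 79.7% and 80.8% of its TPM in MI4KO and for 88.6%, 79.6% and 84.0% in MI4OE. Ndufs1 used NM_001160040 for 20.4%, 30.8% and 22.5% against 12.7%, 27.9% and 27.2%. In both genes MI4OE replicate 1 was the extreme library and the groups overlapped. RSEM divides reads among transcripts and near-identical gene copies that they match, which makes such shares estimates.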

How the data were processed

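RNA was measured in 6 gastrocnemius libraries, grouped by the genotype label. The authors, by the labels and the methods, made stranded mRNA libraries (Kapa), sequenced them as single 50 bp reads, and quantified them with bcl2fastq 2.17, Bowtie2 2.1.0 and RSEM 1.2.15 on a UCSC transcript set. The genome build was not given in the sources used here. The expected counts deposited per gene come from RSEM and are neither normalized nor always whole. The deposited TPM values are RSEM's levels per length. RSEM can split reads among near-identical copies, so members with close paralogues or pseudogenes are uncertain. The authors' table of fold changes, p-values and false discovery rates was not used.

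Expected counts were rounded before a fit at default settings in edgeR 4.0.16 (R 4.3.3). filterByExpr (minimum count 10, minimum total 15) kept 12660 of 24054 genes, and TMM factors of 0.864 to 1.08 scaled the libraries and the CPM values. The quasi-likelihood test compared MI4OE with MI4KO, with Benjamini-Hochberg adjustment over all genes tested. The code was tested on simulated data. The smallest p of an exact permutation test in this design is 0.1. Deviations used log2(CPM + 0.5). Alternatives were: filtering at a mean CPM of 1, or not at all; scaling by RLE factors, by total counts, or by TMM computed without the 100 most abundant genes; bias-adjusted deviances, edgeR's exact test, DESeq2 1.42.0, limma 3.58.1 on log2(TPM + 1) and log2(TPM + 0.1), and leaving out each library.

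Members were named by rule: all Cox4 to Cox8 genes; for each other complex the 3 highest in TPM and the 3 with the smallest unadjusted p; members past either criterion, and up to 5 per direction whose groups did not overlap; up to 3 genes of each list with the smallest unadjusted p; Irf4; and the 5 genes most alike. Ndufs1, Ndufs6, Atp5g2, Ndufa4, Atp5s, Atp5sl, Ndufaf3, Ndufaf4, Ndufaf6, Sdhaf1, Ppargc1a, Ucp1, Nppa, Acta1, Tnnt3, Myh2 and Myh4 were added after their values were seen. The members, lists and motifs were chosen with earlier results of these data known.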

Additional observations from a re-analysis of the deposited data

How the results depend on the processing

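None of the 47 named members, 37 by rule and 10 outside it, reached an adjusted p of 0.05 under any of the 16 alternatives, and 0 of the 91 members did under any of them. Other scalings, filters and tests kept the sign of 46 of the 47, all but Sdhaf1, which was at 0.024 when scaled by total counts, and moved the median log2 fold change over all members between 0.34 and 0.50, and leaving out the factors gave 0.38. Leaving out a library mattered more. The median over all members ran from -0.10 to 0.61, that of complex I from -0.12 to 0.59, of complex II from 0.02 to 0.45, of complex III from -0.10 to 0.63, of complex IV from -0.10 to 0.82 and of complex V from -0.052 to 0.66, the lowest each time without MI4OE replicate 1 and the highest without MI4OE replicate 2. The count of members at 1.5-fold and an unadjusted p under 0.05 ran from 0 (without MI4KO replicate 1, MI4KO replicate 2 or MI4OE replicate 1) to 13 (without MI4OE replicate 2), among them Ndufa4l2, Sdhb, Cox4i2, Atp5h and Cox7a1. In the last fit this was 14.3% of the members, and 10.2% of all genes met the criterion, while in the fits with 0 members 4.56% to 6.33% of all genes did.

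In 28 named members the log2 fold change turned below 0 without MI4OE replicate 1, which gave the lowest value of any library left out, while leaving out MI4OE replicate 2 gave the highest. These lowest and highest values were Atp5g2 -0.23 and 0.20, Atp5e -0.16 and 0.70, Atp5k -0.21 and 0.80, Cox4i1 -0.10 and 0.75, Cox5a -0.078 and 0.54, Cox6a1 -0.62 and 0.33, Cox6b1 -0.032 and 0.86, Cox6c -0.14 and 0.83, Cox7a1 -0.073 and 1.25, Cox7a2 -0.18 and 0.66, Cox7a2l -0.099 and 0.39, Cox7b -0.13 and 0.83, Cox7c -0.043 and 0.82, Cox8a -0.52 and 0.55, Cox8b -0.20 and 0.67, Ndufa11 -0.0099 and 1.02, Ndufa3 -0.16 and 0.72, Ndufa4 -0.16 and 0.58, Ndufaf3 -0.041 and 0.69, Ndufb8 -0.22 and 0.52, Ndufb9 -0.19 and 0.58, Ndufs6 -0.18 and 0.65, Ndufs8 -0.029 and 0.96, Sdhc -0.014 and 0.63, Sdhd -0.21 and 0.26, Uqcr10 -0.14 and 0.64, Uqcr11 -0.17 and 0.74, and Uqcrq -0.10 and 1.03. Leaving out a library moved Ndufaf6 between -0.31 (without MI4KO replicate 2) and 0.098 (without MI4KO replicate 1), and Sdhaf1 between -0.32 (without MI4OE replicate 1) and 0.055 (without MI4OE replicate 2), with 0.048 without MI4KO replicate 1. Atp5g2 was also below 0, at -0.13, without MI4KO replicate 2. Without MI4KO replicate 1, Cox6a1 was at -0.23 and Sdha at -0.0010, and the highest value of Sdha was 0.086, without MI4KO replicate 2. The cause was not tested. The differences in isoform shares, recomputed from expected counts with and without length and without each library, moved by less than 1 SD between libraries but often by over 1.5 times. That of Cox7a1 went from 4.10 to 1.49 percentage points without MI4OE replicate 1, that of Cox4i2 from 0.053 to 0.029 without MI4KO replicate 1, and those of Cox6a2 and Cox8b went from 1.25 to 0.20 and from 0.94 to 0.18 without MI4KO replicate 2, and to 2.12 and 1.86 without MI4KO replicate 1. That of Cox6b2, near the floor, changed sign without MI4KO replicate 2 or MI4OE replicate 3. No paired analysis was possible because nothing in the labels pairs a knockout with an overexpressor mouse, and numbers were given by deposition order.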
